A study of Mus musculus with 6 samples.

Results

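Hras, Nras, Rit1, Mras, Rras and Rras2 encode 6 GTPases of the RAS subfamily that are bound by LZTR1 or ubiquitinated by its ligase in published work. The genes were taken by name and matched to the deposited tables by Ensembl number. All 6 were found among the 51826 genes of each table, and all 6 were among the 14652 genes with enough counts to be tested. Messenger RNA had been sequenced from mouse embryonic fibroblasts (MEFs), which are cultured connective-tissue cells of the embryo, from C57BL/6 mice at passage P2-5. The groups were 3 Lztr1 +/- cultures, numbered 11, 15 and 18 in their titles, and 3 Lztr1 +/+ wild-type cultures, numbered 10, 12 and 16. No treatment is named for either group, and the sources used here do not give the structure of the mutant allele, the litters or the number of embryos per culture. P-values therefore rest on the spread among these cultures, part of which may be technical.

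RAS proteins are membrane-bound switches that signal while they hold GTP, and they pass growth factor signals to the RAF-MEK-ERK kinases, to PI3-kinase and to RAL. LZTR1 is the substrate adaptor of a CUL3 ubiquitin ligase. The ligase attaches ubiquitin to RAS-family proteins, so that loss of LZTR1 raises the amount or the membrane attachment of its substrates. This step acts on protein, and the question here is whether the transcripts of the substrates differ between the genotypes.

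Most RAS proteins reach the membrane through a lipid attached to a cysteine near the carboxyl end. The coding ends of the 6 genes are shown because this tail is where the family members differ most in membrane targeting. Each line holds the last 25 codons, stop codon included, of the longest complete coding transcript in the GENCODE M21 annotation of mm10, and capitals mark the last 4 codons before the stop where the first of these encodes cysteine.
Hras: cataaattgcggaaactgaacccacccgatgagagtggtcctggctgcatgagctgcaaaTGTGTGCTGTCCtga
Nras: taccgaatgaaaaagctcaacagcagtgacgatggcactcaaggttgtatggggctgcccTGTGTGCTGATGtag
Rras: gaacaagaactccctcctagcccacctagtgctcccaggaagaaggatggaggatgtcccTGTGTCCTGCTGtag
Rras2: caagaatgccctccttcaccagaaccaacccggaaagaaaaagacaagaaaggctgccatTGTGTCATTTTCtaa
Mras: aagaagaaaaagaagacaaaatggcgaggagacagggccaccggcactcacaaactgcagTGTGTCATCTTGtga
Rit1: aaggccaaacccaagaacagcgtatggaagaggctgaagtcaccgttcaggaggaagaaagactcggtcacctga

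The cysteine codon stands at this place in 5 of the 6 genes and not in Rit1, whose protein is known to lack the lipid and to hold to membranes by a basic tail. Codon 170 of Hras encodes lysine, the residue at which ubiquitination by the LZTR1 ligase has been reported for HRAS. Codon 170 of Nras also encodes lysine. Over the whole coding sequence Hras and Nras were 75.9% identical, the closest pair, and Rras and Rras2 followed at 68.2%. Within the last 75 bases the identity of Hras and Nras was 54.1% and that of Rras and Rras2 58.3%. Of all runs of 50 bases in their annotated transcripts, 0 occurred in transcripts of another gene for Hras, Rit1, Mras, Rras and Rras2, and 41 of 5594 (0.733%) did for Nras. The deposited counts are estimates that become fractional where reads are shared between genes, and those of all 6 genes had no decimal part as deposited in any of the 6 libraries.

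The genes lie on 3 chromosomes, and all coordinates are those of mm10. On chromosome 7 are Hras (ENSMUSG00000025499.18, minus strand, 141189105 to 141194005), Rras (ENSMUSG00000038387.9, plus strand, 45017961 to 45021647) and Rras2 (ENSMUSG00000055723.6, minus strand, 114046782 to 114117781). On chromosome 3 are Nras (ENSMUSG00000027852.14, plus strand, 103058285 to 103067914) and Rit1 (ENSMUSG00000028057.14, plus strand, 88716838 to 88731049). Mras (ENSMUSG00000032470.16) lies on the minus strand of chromosome 9 from 99385420 to 99437381. Each is annotated as protein-coding, and the values cover its annotated transcripts, untranslated parts included, and not the whole span. The annotated genes that overlap them, Gm17146 at Rit1 and Gm45615 at Rras2, had 0 counts in every library.

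Libraries held 11028854 to 21885101 expected counts in Lztr1 +/- cultures and 11025286 to 14030349 in wild-type cultures. Lztr1 itself was at 49.7% of its wild-type level in Lztr1 +/- cultures (95% interval 44.7% to 55.3%), lower in 3 of 3 cultures. It was the 1 gene of 14652 that passed an adjusted p of 0.05 (adjusted p = 0.00457, from the quasi-likelihood test of edgeR after Benjamini-Hochberg adjustment), which is 0.00683% of the genes tested. With 1 culture other than wild-type culture 16 left out, its adjusted p was 0.0616 to 0.0759 by edgeR and its log2 difference -1.02 to -0.97. All 11 fibroblast markers were expressed, with a summed 10430 to 11700 TPM (a length-corrected unit) in Lztr1 +/- and 10910 to 12590 TPM in wild-type cultures. The markers of each of 6 other lists, from blood to neural cells, summed to at most 506 TPM in any Lztr1 +/- culture and 440 TPM in any wild-type culture. Y-linked genes were high in Lztr1 +/- cultures 15 and 18 and in wild-type culture 12, so both groups mix sexes in unequal numbers. Cultures 11 and 16 carry later accession numbers than the other 4, and the culture numbers form a run of 10 to 12 and a run of 15 to 18. Neither grouping is named as a batch in the labels, and for genes that turn on them values are also given within these sets.

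None of the 6 genes passed the gene-wide test. On the log2 scale the fitted differences between Lztr1 +/- and wild-type cultures lay between -0.22 for Rras and 0.37 for Rras2. The median difference of the 6 was 0.045, with 3 genes above 0 and 3 below. Over all tested genes the median was -0.0018, with 7265 above 0 and 7387 below. The median size of a difference, sign left aside, was 0.11 for the 6 genes and 0.12 for all tested genes. At an unadjusted p of 0.05 the test passed 1 of the 6 genes, Rras, against 12.2% of all tested genes, 5.56% higher and 6.65% lower in Lztr1 +/- cultures. Groups were fully separated, every culture of one genotype above every culture of the other, for 1 of the 6 genes, again Rras, against 17.7% of all tested genes, 7.75% with Lztr1 +/- higher and 9.97% with it lower. DESeq2 also passed 0 of the 6 genes at an adjusted p of 0.05, where it passed 0.764% of all tested genes, 0.403% as higher and 0.362% as lower.

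**Figure D1:**
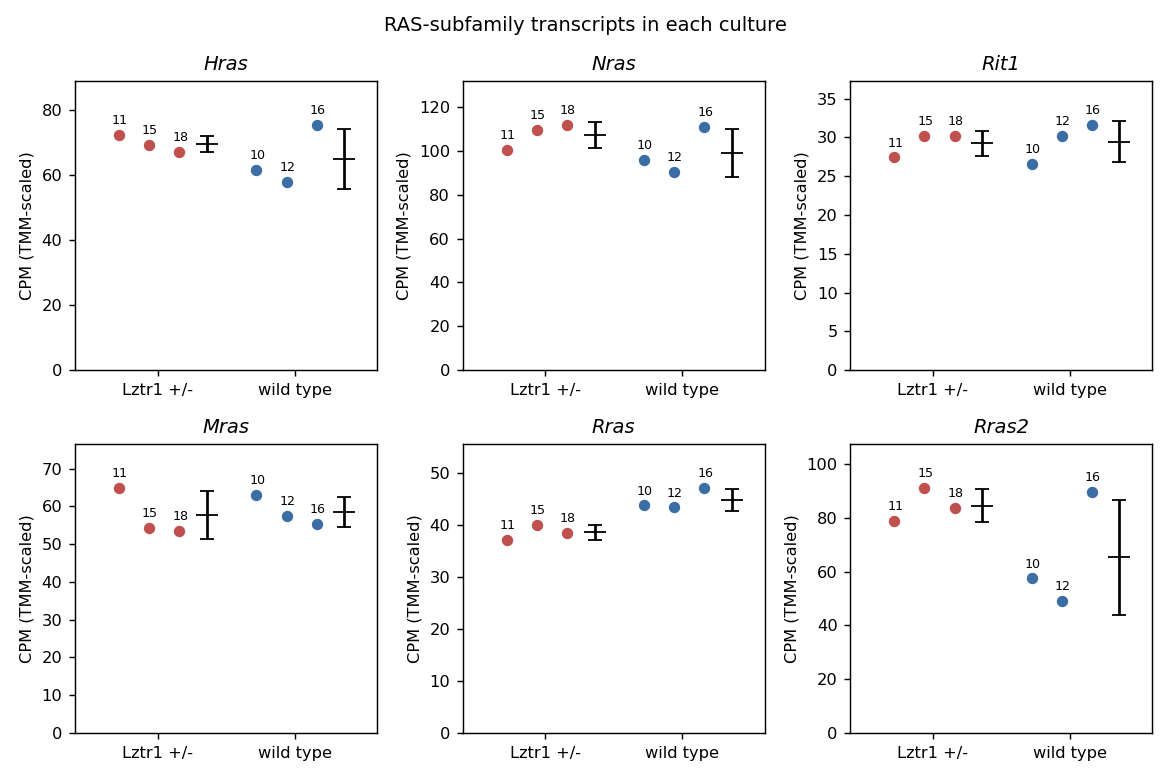
Level of each of the 6 transcripts in each culture, in CPM (read counts scaled to a common library size with TMM factors, not to length) on axes that start at 0. Points are single cultures with their numbers, Lztr1 +/- in red and wild type in blue, and bars give the mean ± SD of 3 cultures. Rras is lower in all 3 Lztr1 +/- cultures, and wild-type culture 16 stands with the Lztr1 +/- cultures for Rras2.

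Transcript levels were first ordered over all 6 cultures in TPM, the unit scaled for transcript length. Hras was the most abundant, at a mean of 104 TPM over a range of 95.1 to 114 TPM. Rras followed at 85.7 TPM (76.2 to 93.4), Nras at 67.3 TPM (57.4 to 79.2), Rras2 at 58.5 TPM (40.2 to 69.8), Rit1 at 45.9 TPM (41.4 to 49.1) and Mras at 36.3 TPM (32.8 to 42.5). All 6 were well expressed, between the 71.5th percentile (Mras) and the 89.8th percentile (Hras) of the mean TPM of tested genes. Among neighbours in this order, the ranges of Hras and Rras did not overlap, and those of each other neighbouring pair did. Even so, Rras was above Nras in 6 of 6 cultures. Rras2 was above Rit1 in 5 of 6, Rit1 above Mras in 5 of 6, and Nras above Rras2 in 4 of 6.

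**Figure D2:**
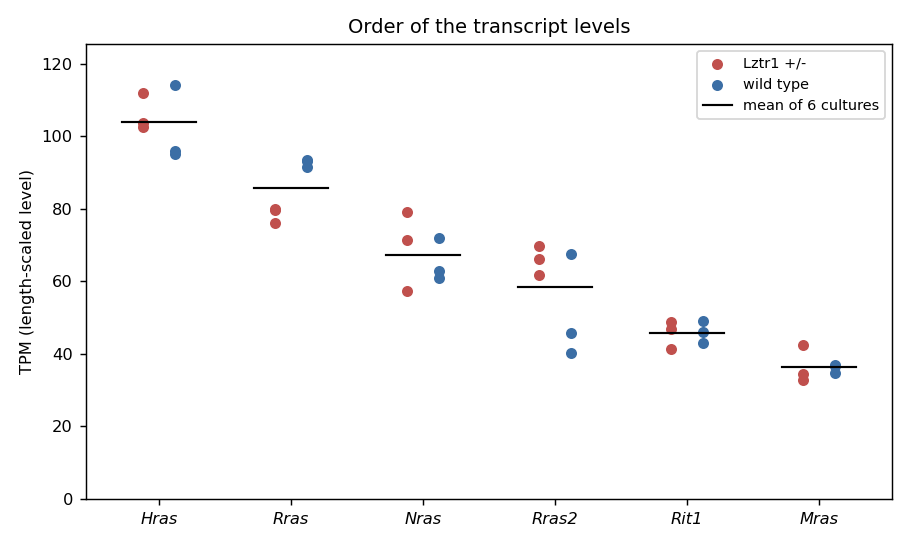
Level of each transcript in TPM (length-scaled), genes ordered by their mean over 6 cultures, which the black lines mark. Points are single cultures, Lztr1 +/- in red at the left and wild type in blue at the right of each gene. Hras is the highest at a mean of 104 TPM and Mras the lowest at 36.3 TPM.

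The summed TPM of the 6 genes was 402 ± 9.61 in Lztr1 +/- and 393 ± 22.9 in wild-type cultures (SD, n = 3 each), and the sums overlapped. Hras made up 26.4% ± 1.95 of that sum in Lztr1 +/- cultures and 25.8% ± 1.34 in wild-type cultures. The share of Rras was 19.5% in culture 11 and 19.6% in each of cultures 15 and 18 of the Lztr1 +/- group, against 24.5%, 24.1% and 22.3% in wild-type cultures 10, 12 and 16. Rras2 took 15.8%, 17.1% and 16.2% of the sum in Lztr1 +/- cultures 11, 15 and 18, against 12.3%, 10.4% and 16.1% in wild-type cultures 10, 12 and 16. A lower share of one gene raises the shares of the others, so these values describe the make-up and not independent changes.

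Hras and Nras, the classical RAS genes of the set, had nearly the same fitted difference, and neither passed the test. Hras measured 72.4, 69.3 and 67.2 CPM in Lztr1 +/- cultures 11, 15 and 18, against 61.7, 58.0 and 75.4 CPM in wild-type cultures 10, 12 and 16. Wild-type culture 16 had the highest Hras value of all 6, above each Lztr1 +/- culture, so the groups overlapped. The Lztr1 +/- mean was 107% of wild type (95% interval 91.9% to 125%), a log2 difference of 0.10 (SE 0.097, adjusted p = 0.692 by edgeR). It was 0.033 without wild-type culture 12 and 0.22 without wild-type culture 16, where its adjusted p was 0.0697 by edgeR. The counts behind these values were 656 to 1570 reads per library.

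Nras measured 101 CPM in Lztr1 +/- culture 11, 110 in culture 15 and 112 in culture 18, against 95.8, 90.3 and 111 CPM in wild-type cultures 10, 12 and 16. As for Hras, wild-type cultures 10 and 12 were the lowest of the 6, and here culture 16 stood among the Lztr1 +/- cultures. The mean was 108% of wild type (95% interval 94.7% to 124%), a log2 difference of 0.11 (SE 0.084, adjusted p = 0.602 by edgeR). It was 0.059 without wild-type culture 12 and 0.21 without wild-type culture 16, where its adjusted p was 0.0978 by edgeR. The log2 difference of Nras came to 0.11 between cultures 11 and 10 with 12, and to -0.0049 between cultures 15 with 18 and culture 16. That of Hras came to 0.27 and -0.14. With cultures 15 and 18 set against 10 and 12 alone, Nras passed (0.25, SE 0.055, adjusted p = 0.0390 by edgeR), a fit in which genotype and culture run coincide. There 9.83% of all tested genes passed, 5.45% as higher and 4.39% as lower.

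Rras encodes R-RAS, a relative of the classical RAS proteins that acts on integrin-mediated adhesion, and it was the lowest-p gene of the set. It measured 37.1, 39.9 and 38.4 CPM in Lztr1 +/- cultures 11, 15 and 18, against 43.7, 43.3 and 47.1 CPM in wild-type cultures 10, 12 and 16. All 3 Lztr1 +/- values lay below all 3 wild-type values, as they did for 9.97% of all tested genes. The means were 38.5 ± 1.39 CPM in Lztr1 +/- and 44.7 ± 2.06 CPM in wild-type cultures (SD, n = 3 each). This is 86.1% of wild type (95% interval 77.5% to 95.6%), a log2 difference of -0.22 (SE 0.066, unadjusted p = 0.0111 and adjusted p = 0.317 by edgeR). By an exact two-sided permutation test on CPM, p was 0.1, and no smaller value is possible with 3 cultures a group.

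The difference of Rras kept its sign in each fit with 1 culture left out, between -0.24 without culture 15 and -0.18 without wild-type culture 16, and passed in none of them (adjusted p = 0.145 to 0.773 by edgeR). Because the groups do not overlap, the sign within the runs is given by that and the size alone is of use. It was -0.23 within cultures 10 to 12 and -0.26 within cultures 15 to 18, and -0.34 between cultures 11 and 16 and -0.15 between the other 4. In TPM, where effective length enters, Rras stood at 78.6 ± 2.16 in Lztr1 +/- and 92.7 ± 0.991 in wild-type cultures (SD, n = 3 each). RSEM assigned its reads to transcripts of 1 mean length, 995 bases, in all 6 libraries.

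Rras2 encodes TC21, the R-RAS relative that shares the most effectors with the classical RAS proteins, and it varied more between wild-type cultures than any other gene of the set. It measured 78.8, 91.2 and 83.8 CPM in Lztr1 +/- cultures 11, 15 and 18, against 57.5, 49.2 and 89.6 CPM in wild-type cultures 10, 12 and 16. Wild-type cultures 10 and 12 were the lowest of the 6, while wild-type culture 16 was above cultures 11 and 18. The coefficient of variation over the wild-type cultures was 32.7%, against 4.61% to 14.1% for the other 5 genes. Over the Lztr1 +/- cultures that of Rras2 was 7.39%, below the 11.03% of Mras and above the other 4 genes.

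Over all 6 cultures Rras2 was at 129% of wild type in Lztr1 +/- cultures (95% interval 94.99% to 177%), a log2 difference of 0.37 (SE 0.19, adjusted p = 0.471 by edgeR). Without wild-type culture 16 it passed, with a log2 difference of 0.66 (SE 0.089, adjusted p = 0.0110 by edgeR). In that fit 5.93% of all tested genes passed, 3.69% as higher and 2.24% as lower. The wild-type cultures left there, 10 and 12, share a run and an accession set. With the run also as a term the genotypes are compared by culture 11 alone against cultures 10 and 12, and the lone Lztr1 +/- culture is assumed to vary like the others. That fit is the within-run comparison again, at 0.56 (SE 0.098, adjusted p = 0.0445 by edgeR), where 1.93% of all tested genes passed, 1.27% as higher. The adjusted p of that fit and its share of passing genes rest on Lztr1 +/- culture 11 alone and are not read as results. Between cultures 15 and 18 and culture 16 the difference was -0.036, so the direction did not hold within both runs. Between cultures 11 and 16 it was -0.19 and between the other 4 it was 0.72.

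**Figure D3:**
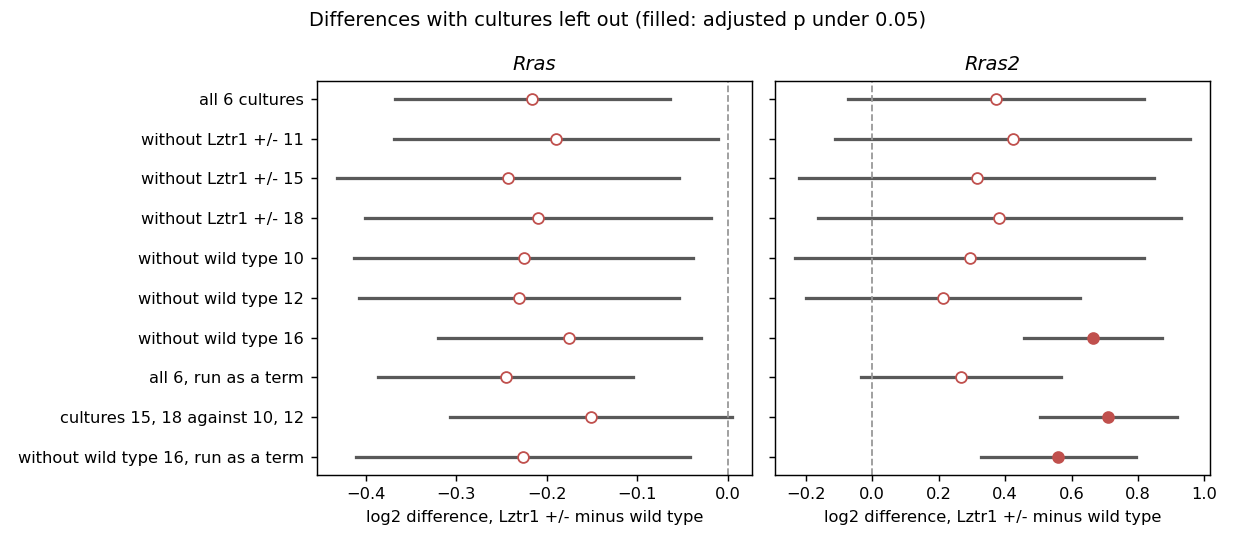
Log2 difference between Lztr1 +/- and wild-type cultures for Rras (left) and Rras2 (right) under 10 choices of cultures and terms in edgeR. Points are fitted differences, lines their 95% intervals, and filled points mark an adjusted p under 0.05. Rras stays between -0.25 and -0.15 and is never filled, and Rras2 is filled in the 3 fits without wild-type culture 16, which share cultures. The lowest of these compares Lztr1 +/- culture 11 alone with wild-type cultures 10 and 12, so its fill is not read as a result.

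Wild-type culture 16 stood apart from wild-type cultures 10 and 12 in several other sets of genes. The mean of 18 ERK output and feedback genes, relative to wild type on the log2 scale, was 0.23, 0.32 and 0.15 in Lztr1 +/- cultures 11, 15 and 18, against -0.099, -0.25 and 0.35 in wild-type cultures 10, 12 and 16. On that scale Rras2 stood at 0.32, 0.53 and 0.40 in Lztr1 +/- cultures 11, 15 and 18, against -0.14, -0.36 and 0.50 in wild-type cultures 10, 12 and 16. The summed level of 8 erythroid markers was 251, 441 and 506 TPM in Lztr1 +/- cultures, against 160, 125 and 440 TPM in wild-type cultures, in the same order. Of those 8 markers 6 reached a mean of 1 TPM and 0 were at 0 in all cultures. The 11 fibroblast markers summed to 10430, 11700 and 10960 TPM in Lztr1 +/- cultures, against 12590, 12470 and 10910 TPM in wild-type cultures. In both, culture 16 lay within the range of the Lztr1 +/- cultures and cultures 10 and 12 outside it. Single fibroblast markers went in different directions. Col1a1 was at 2297, 2620 and 2538 TPM in Lztr1 +/- cultures, against 3265, 3356 and 2398 TPM in wild-type cultures. Vim was at 3696, 4050 and 3615 TPM, against 3292, 3148 and 3713 TPM. The 5 epithelial markers summed to 127, 189 and 220 TPM in Lztr1 +/- cultures, against 112, 120 and 176 TPM in wild-type cultures. The 5 skeletal muscle markers summed to 281, 212 and 289 TPM in Lztr1 +/- cultures, against 327, 325 and 212 TPM in wild-type cultures. Here too cultures 10 and 12 lay outside the Lztr1 +/- range, and culture 16 within it, for muscle at its lower edge. The lists that remain did not show this. Macrophage and blood markers summed to 133, 260 and 219 TPM in Lztr1 +/- cultures, against 157, 167 and 230 TPM in wild-type cultures. Endothelial markers summed to 11.3, 15.3 and 11.5 TPM, against 12.2, 8.75 and 12.1 TPM. Neural and Schwann markers summed to 200, 198 and 250 TPM, against 264, 178 and 137 TPM. The part of any of these lists in the Rras2 values was not tested. In bulk RNA, fewer cells of a type and less RNA per cell cannot be told apart.

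Mras encodes M-RAS, which joins SHOC2 and a PP1 phosphatase in the complex that activates RAF. Its level did not pass the test and its direction depended on the settings. It measured 64.9, 54.4 and 53.5 CPM in Lztr1 +/- cultures 11, 15 and 18, against 63.0, 57.5 and 55.4 CPM in wild-type cultures 10, 12 and 16. The highest value of each group was in the run 10 to 12, and the groups overlapped almost fully. The mean was 98.5% of wild type (95% interval 85.2% to 114%), a log2 difference of -0.022 (SE 0.091, adjusted p = 0.941 by edgeR). With effective gene length as an offset it was 0.045, and with the run as a term 0.038.

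Rit1 encodes the GTPase without a lipid anchor and is, in human, mutated in Noonan syndrome, as LZTR1 is. It had the fewest reads of the set, 333 to 595 per library, which is a counting error of 5.48% at the lowest. It measured 27.4, 30.2 and 30.2 CPM in Lztr1 +/- cultures 11, 15 and 18, against 26.6, 30.2 and 31.6 CPM in wild-type cultures 10, 12 and 16. Cultures 10 and 11, one of each genotype, were the lowest, and the groups overlapped. The mean was 99.2% of wild type (95% interval 86.1% to 114%), a log2 difference of -0.011 (SE 0.089, adjusted p = 0.971 by edgeR). With cultures 15 and 18 set against 10 and 12 the difference was 0.090, so its direction was not stable.

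**Figure D4:**
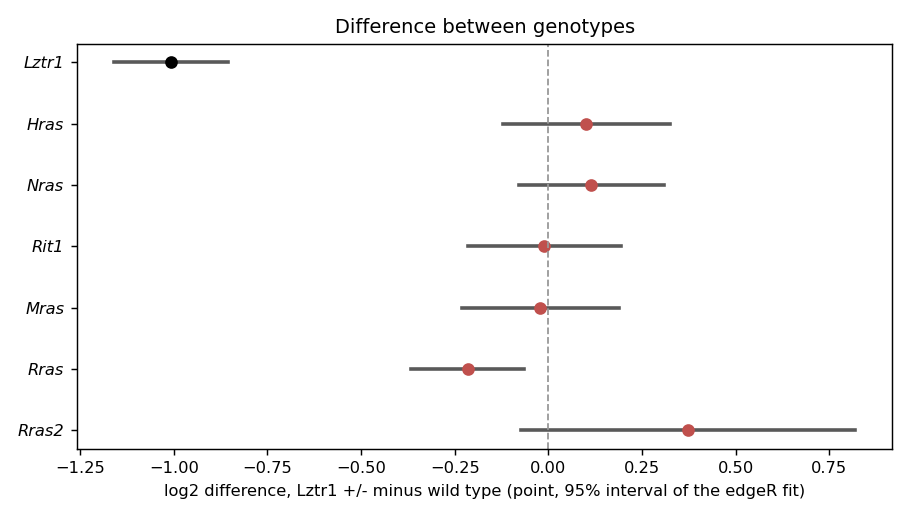
Fitted log2 difference between Lztr1 +/- and wild-type cultures for Lztr1 (black) and the 6 RAS-subfamily genes (red), with 95% intervals from edgeR. The interval of Lztr1 lies between -1.16 and -0.86, and those of Hras, Nras, Rit1, Mras and Rras2 include 0.

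The intervals set what these libraries could miss. For Hras, Nras, Rit1 and Mras the 95% intervals together ran from 85.2% to 125% of the wild-type level, so a change by 2-fold in either direction lay outside each. That of Rras2 reached up to 177%. A p above the threshold does not show that the levels were the same.

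The mean length of the transcripts to which RSEM assigned the reads is a second readout, which moves when another isoform of a gene takes a larger share. Nras varied most, with 3043, 2636 and 2512 bases in Lztr1 +/- cultures 11, 15 and 18, against 2799, 2326 and 2966 bases in wild-type cultures 10, 12 and 16. Its 9 annotated transcripts run from 276 to 4470 bases. Both groups covered nearly the same range, and the Lztr1 +/- mean was 33.9 bases above that of wild type (exact two-sided permutation p = 0.9). TPM is divided by length, and Nras in TPM was lowest in culture 11, where its assigned length was greatest. Mras had means of 2755 ± 107 bases in Lztr1 +/- and 2863 ± 177 bases in wild-type cultures (SD, n = 3 each, exact permutation p = 0.6), and its difference of -108.3 bases was -12.5 without wild-type culture 10 and -186.3 without wild-type culture 16. For Hras, Rit1 and Rras2 the groups also overlapped, and over the 5 genes with a varying length the smallest adjusted permutation p was 0.9.

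Across the 6 cultures Rras2 ran most closely with Nras (Pearson r of log2 CPM 0.948, Spearman rho 0.771) and Hras (r 0.906, rho 0.714). Hras and Nras had r 0.786 and rho 0.6, and Rit1 and Mras ran in opposite directions (r -0.876, rho -0.486). Rras had an r between -0.272 and 0.326 with each of the others. These are descriptions over 6 libraries, whose values share depth and composition scaling.

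The protein-coding genes whose pattern was most like each member were picked by Pearson's r over the same 6 cultures. For Rras2 they were Thop1, a peptidase gene, and Rgs16, a regulator of G-protein signalling (r 0.999 each), and 354 protein-coding genes had an r over 0.95 with it. Hras ran with Ier3, an immediate-early gene (r 0.994). Sdad1 and Srpk1, a kinase of splicing factors, were closest to Nras (r 0.997 each). Rras ran with Rpn1, a subunit of the oligosaccharyltransferase (r 0.988), and Tmem263 (r 0.984). Mras ran with Uck1, a uridine-cytidine kinase (r 0.983), and the splicing factor gene Puf60 (r 0.982). The closest to Rit1 were Zfp442 (r 0.994) and Epcam, an epithelial adhesion molecule (r 0.983). Both had few reads. Zfp442 stood at 2.77 CPM in Lztr1 +/- and 2.805 CPM in wild-type cultures, and Epcam at 3.73 and 3.72 CPM. None of these 11 genes passed the test between genotypes, and the number of protein-coding genes with an r over 0.95 was 134 for Hras, 197 for Nras, 36 for Rras, 21 for Mras and 18 for Rit1.

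Among neighbouring genes, Lrrc56 starts 151 bases from Hras on the other strand and stood at 1.72 CPM in Lztr1 +/- and 2.84 CPM in wild-type cultures, at most 50 counts in a library (log2 difference -0.73, SE 0.38, adjusted p = 0.476). The sources used here do not state whether the counting used strand.

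The pathway around the 6 genes was read in lists taken from textbook roles, and in edgeR 0 genes of the first 5 lists passed. Among 24 tested of 29 other RAS subfamily GTPases, 15 were above 0 and 9 below. Their median log2 difference was 0.018, and the groups were separated for 12.5% of them. Those with the smallest p were Rasl11b, at 34.8 ± 3.07 CPM in Lztr1 +/- and 44.0 ± 1.46 CPM in wild-type cultures (-0.34, SE 0.079, adjusted p = 0.313), Rem1 (0.81, SE 0.34) and Rerg (-0.33, SE 0.14). Rem1 had few reads, at 1.79 CPM in Lztr1 +/- and 0.998 CPM in wild-type cultures. The groups overlapped for Rem1 and for Rerg. Of 17 genes that process and carry RAS lipid tails, 7 were above 0 and 10 below, with a median of -0.021. Rap1gds1, a chaperone of prenylated small GTPases, differed by 0.19 (SE 0.053), Arl2 by -0.20 (SE 0.073) and Pde6d, the carrier of farnesylated RAS that ARL2 unloads, by -0.21 (SE 0.084), each at an adjusted p of 0.313 to 0.386 by edgeR. Rap1gds1 was higher, and Arl2 and Pde6d were lower, in every Lztr1 +/- culture than in any wild-type culture, and 6 of the 17 genes were separated in this way, 3 in each direction (35.3%, against 17.7% of all tested genes).

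Exchange factors load RAS with GTP, and GTPase-activating proteins switch it off. Their list had 14 of 17 tested genes above 0 and a median of 0.098, and the groups were separated for 17.6% of it. The list also holds the scaffold gene Iqgap1, Rabgef1, Spred1, Spred2 and Spred3. Iqgap1 differed by 0.21 (SE 0.073), Rasa2, a GTPase-activating protein, by 0.17 (SE 0.067) and the exchange factor Rasgrp3 by 0.56 (SE 0.26), with adjusted p of 0.340 to 0.431 by edgeR. Among 27 effectors and RAF-SHOC2 partners 17 were above 0, with a median of 0.044. Afdn, a junction protein with RAS-binding domains, measured 120 ± 4.16 CPM in Lztr1 +/- and 97.2 ± 3.63 CPM in wild-type cultures (SD, n = 3 each), a difference of 0.31 (SE 0.055, adjusted p = 0.305 by edgeR). Pik3cb, a PI3-kinase catalytic subunit, differed by 0.56 (SE 0.12, adjusted p = 0.313), and Ralgds, the exchange factor through which RAS acts on RAL, by -0.39 (SE 0.10, adjusted p = 0.313). The groups did not overlap for Afdn, Pik3cb and Ralgds, and 29.6% of the list was separated in this way, against 17.7% of all tested genes.

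The 18 ERK output and feedback genes had 15 above 0 and a median of 0.21. In edgeR 0 passed over all 6 cultures, and the groups were separated for 0.0% of the list, against 17.7% of all tested genes. Without wild-type culture 16, which had the highest mean of this list, 11 passed, where 5.93% of all tested genes passed. Over all 6 cultures the smallest p were those of Dusp4, a feedback phosphatase (0.62, SE 0.19), the receptor Epha2 (0.59, SE 0.25) and cyclin D1, Ccnd1 (0.23, SE 0.10). Their adjusted p were 0.321 to 0.411 by edgeR. In the list of the LZTR1 ligase and RAS ubiquitination 1 of 13 genes passed, Lztr1 itself, and the median was -0.0071. Groups were separated for 23.1% of that list, Lztr1 itself included, against 17.7% of all tested genes.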

How the data were processed

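RNA was sequenced from 6 MEF cultures, 3 Lztr1 +/- and 3 wild-type, grouped by the genotype in their titles. The deposited expected counts are RSEM 1.3.1 estimates of reads per gene on mm10, per the submitters' processing notes, which also name DESeq2. The deposited TPM values are RSEM's length-scaled abundances, and the deposited lengths are means over transcripts weighted by abundance. Aligner, annotation release and strand setting were not given in the sources used here. Symbols were matched by Ensembl number for 51633 of 51826 genes, with coordinates and transcripts from GENCODE M21.

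Expected counts were rounded, filtered with filterByExpr, scaled with TMM and tested with edgeR 4.0.16 (R 4.3.3, quasi-likelihood F test, Benjamini-Hochberg over 14652 genes, threshold 0.05). Intervals are at 95% and come from that fit, and log2 CPM used a prior count of 2. Between cultures edgeR estimated a biological coefficient of variation of 11.3%, and log2 differences had a median SE of 0.11. DESeq2 1.42.0 and limma 3.58.1 on log2(TPM + 1) were alternatives, as were other scalings, filters, terms and sets of cultures. Libraries held 11025286 to 21885101 expected counts. Counting errors cover counting alone. The steps were tested on simulated counts. The 6 genes, the lists and the tests were chosen with earlier results of these data known. Within a list the 3 smallest p are named, and the 2 genes most like each member by Pearson's r. Some genes named by these rules are not reported here.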

Additional observations from a re-analysis of the deposited data

How the results depend on the processing

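Of the 6 genes, 0 passed the threshold over all cultures, 0 to 1 with 1 culture left out, and 2 with cultures 10, 12, 15 and 18 alone. The 1 passed without wild-type culture 16, where 5.93% of all tested genes passed. With the 4 cultures 9.83% of all tested genes passed, and there genotype and culture run coincide. A fit added after seeing the data left out culture 16 and had the run as a term. It compares Lztr1 +/- culture 11 alone with cultures 10 and 12, while cultures 15 and 18 add to the spread alone. Its differences are therefore given here without p, and the p stated above for Rras2 is not read as a result. Rras2 differed by 0.21 to 0.66 with 1 culture left out, by 0.71 with cultures 10, 12, 15 and 18 alone, and by 0.56 in the added fit. Nras differed by 0.25 with those 4 cultures. Rit1 turned to 0.0093 with the length offset and 0.090 with the 4 cultures, and ran from -0.076 to 0.045 with 1 culture left out. Mras turned to 0.045 with the length offset, 0.012 on log2(TPM + 1) with or without the filter and on log2(TPM + 0.1), 0.038 with the run, 0.024 with Y-linked expression as a term and 0.11 in the added fit, and ran from -0.12 to 0.040 with 1 culture left out. The cause was not tested. Hras and Rras kept their direction and did not pass under any of the 18 alternatives, but Hras ran from 0.033 to 0.22 with 1 culture left out and was 0.27 in the added fit. Nras ran from 0.059 to 0.21 with 1 culture left out. The median of all genes was -0.026 to 0.014 over these alternatives.

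Over all tested genes the count of 1 became 32 without the low-count filter, 112 in DESeq2, 0 with the length offset and on unfiltered TPM, 1450 with the 4 cultures, 291 in the added fit, and 0 to 896 with 1 culture left out. Lztr1 stayed between -1.08 and -0.91, but lost its call with the length offset, in the 3 TPM tests and without any 1 culture other than wild-type culture 16 (adjusted p up to 0.3005). With the 4 cultures, passing genes were 12 of the 18 listed for ERK output and 5 of the 27 for effectors. They were 1 of the 22 listed for exchange factors and GTPase-activating proteins, and 1 of the 17 for lipid processing. In that fit 9.83% of all tested genes passed, genotype and culture run coincide, and wild-type culture 16 is left out. With 1 culture left out the counts of these lists, in the same order, were 0 to 11, 0 to 5, 0 to 1 and 0 to 1. Each was above 0 without wild-type culture 16 alone, where 5.93% of all tested genes passed. DESeq2 gave 2 effectors, where it passed 0.764% of all tested genes. The ligase list gave 0 with the length offset and in the 3 TPM tests, 2 with the 4 cultures and 0 to 1 with 1 culture left out.

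The length difference of Nras ran from -151.7 to 168.5 bases with 1 culture left out, that of Mras from -186.3 to -12.5, that of Hras from 8.04 to 24.8, that of Rit1 from -31.4 to 16.3 and that of Rras2 from -2.71 to 0.425, with 2.05 for effective length. No paired analysis was possible because the groups share no culture numbers. Reads per library, 333 to 2181 for the 6 genes, limit single values to a counting error of up to 5.48%.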
